A study of Mus musculus with 17 samples.

Results

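The STAT transcription factors and the Jak kinases carry signals from cytokine receptors to the nucleus. The family was described here by 9 of the 17097 genes with a probe set of their own on the array: the transcription factors Stat2, Stat3, Stat4, Stat5a, Stat5b and Stat6 and the kinases Jak1, Jak2 and Jak3. The genes were chosen by name. For each gene the probe set that names no other gene and has the highest mean over all 17 arrays was used, and the 9 genes had 17 such probe sets in all. Values are deposited log2 expression values, so a difference of 1 is a doubling, and a level of a gene can be set beside the same gene in other cells but not beside another gene.

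Cytokine receptors of these classes have no kinase activity of their own. A pair of Jak kinases sits on their inner tails, and when a cytokine joins the receptor chains the kinases phosphorylate each other, the tails and the STAT proteins that dock there. The STAT proteins then pair, enter the nucleus and switch on target genes, among them those for the SOCS proteins that brake the pathway. In lymphocytes the pathway carries the signals of interferons and interleukins that set T helper cell fates and B cell activation.

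All cells were sorted from NOD mice, males whose lacrimal glands are invaded by lymphocytes and which serve to model Sjögren's syndrome. Gland B cells (4 arrays) were gated as CD45+ NKp46- CD11b- CD11c- B220+ CD3-. Gland CD4 T cells (4 arrays) were gated as CD45+ NKp46- CD11b- CD11c- CD3+ CD4+ and negative for B220, and gland epithelial cells (3 arrays) as CD45- CD326+, all with a live/dead dye. Spleen B cells and spleen CD4 T cells (3 arrays each) served as the steady-state control. All gland groups were from mice 16 weeks old. For the spleen groups the sources disagree, the sample labels giving 16 weeks and the design text 4 weeks, and age is therefore not known to be matched between the tissues. Glands were dissociated mechanically and with enzymes. The labels state no enzyme step for spleen cells. The labels do not say that replicates came from separate animals, and the p-values cover no more than the variation among these samples, part or all of which may be technical.

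The sorted cells carried the markers of their labels. The mean of the B cell list (Ms4a1, Cd79a and others, 5 genes measured) was 9.77 to 10.07 in the B cell arrays and 3.66 to 4.94 elsewhere, and that of the T cell list (7 genes) 9.99 to 10.14 in the CD4 T cell arrays and 3.89 to 4.45 in the B cell arrays. Epithelial replicate 1 stood apart: Ptprc, which encodes CD45, was 9.62 there and 2.42 and 2.36 in replicates 2 and 3, and the natural killer cell list (4 of 5 genes measured) averaged 6.97 against 3.86 and 3.74. Spleen B cell replicate 3 also stood apart, with S100a8, a neutrophil gene, at 9.63 against 3.59 and 3.32 in replicates 1 and 2. Epithelial genes were present in the gland lymphocyte arrays, the mean of the list (Epcam, Krt8 and others, 8 genes) being 5.37 to 5.80 in gland B cells and 5.67 to 6.05 in gland CD4 T cells, 4.08 to 4.23 in the spleen arrays and 9.07 to 9.51 in the epithelial arrays. The lacrimal secretory list (3 of 7 genes measured) was 8.05 to 8.81 in gland B cells, 7.87 to 8.43 in gland CD4 T cells and 3.54 to 4.57 in the spleen arrays. The endothelial list (5 genes) averaged 8.08 to 8.62 in the epithelial arrays, against 3.18 to 4.50 in the lymphocyte arrays. The fibroblast list (5 genes) was 6.11 to 6.64 in the epithelial arrays and 2.95 to 3.32 in the lymphocyte arrays. The red cell list (3 of 5 genes measured) was 7.44 to 7.72 and 4.33 to 6.49. The part of RNA of such cells in the epithelial levels of the members, and in the place of epithelium among the groups, was not tested. Array values carry no detection calls, so a level near or below the median of all values, 4.71, is not shown to be above background.

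Stat2, Stat3, Jak2 and Jak3 were higher in CD4 T cells of the gland than of the spleen, by 2.11-fold, 2.03-fold, 1.33-fold and 2.22-fold. In B cells Stat2 and Stat3 were higher in the gland, by 1.58-fold and 1.76-fold. No member fell in either cell type, at an adjusted or an unadjusted p under 0.05. Thus 4 of 9 members passed upwards in CD4 T cells, where limma called 12.7% of all genes higher and 10.7% lower in the gland, and 2 of 9 in B cells, where 7.79% of all genes were higher and 9.87% lower (Benjamini-Hochberg adjusted p under 0.05 over 17097 genes). The median log2 change of the 9 genes was 0.41 in CD4 T cells and 0.24 in B cells, beside -0.03 and 0.00 over all genes. With a fold change of at least 2 required as well, Stat2, Stat3 and Jak3 remained in CD4 T cells, 3 of 9 members beside 5.35% of all genes, and no member in B cells. Of the plasma cell markers (4 of 5 genes measured), 3 rose in gland CD4 T cells. Their list averaged 7.32 to 7.71 in gland and 5.48 to 6.07 in spleen CD4 T cells. Jchain, a joining chain of antibodies, went from 5.57 ± 1.30 to 9.09 ± 0.53, Prdm1 from 6.32 ± 0.12 to 8.65 ± 0.29 and Xbp1 from 7.11 ± 0.07 to 8.25 ± 0.22. Tnfrsf17 stood at 4.13 to 4.42 in the gland and 3.88 to 4.20 in the spleen, below the median of all values. In spleen B cells, where Jchain was highest (11.19 ± 0.03), Prdm1 stood at 5.75 ± 0.43, below gland CD4 T cells. The rise of the list is thus not particular to plasma cell RNA. In B cells the list was lower in the gland (6.66 to 6.98) than in the spleen (7.54 to 7.93), and the part of plasma cell RNA in the members' differences was not tested. The arrays were made from bulk sorted samples, in which fewer cells of a type and less RNA per cell cannot be told apart.

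**Figure D1:**
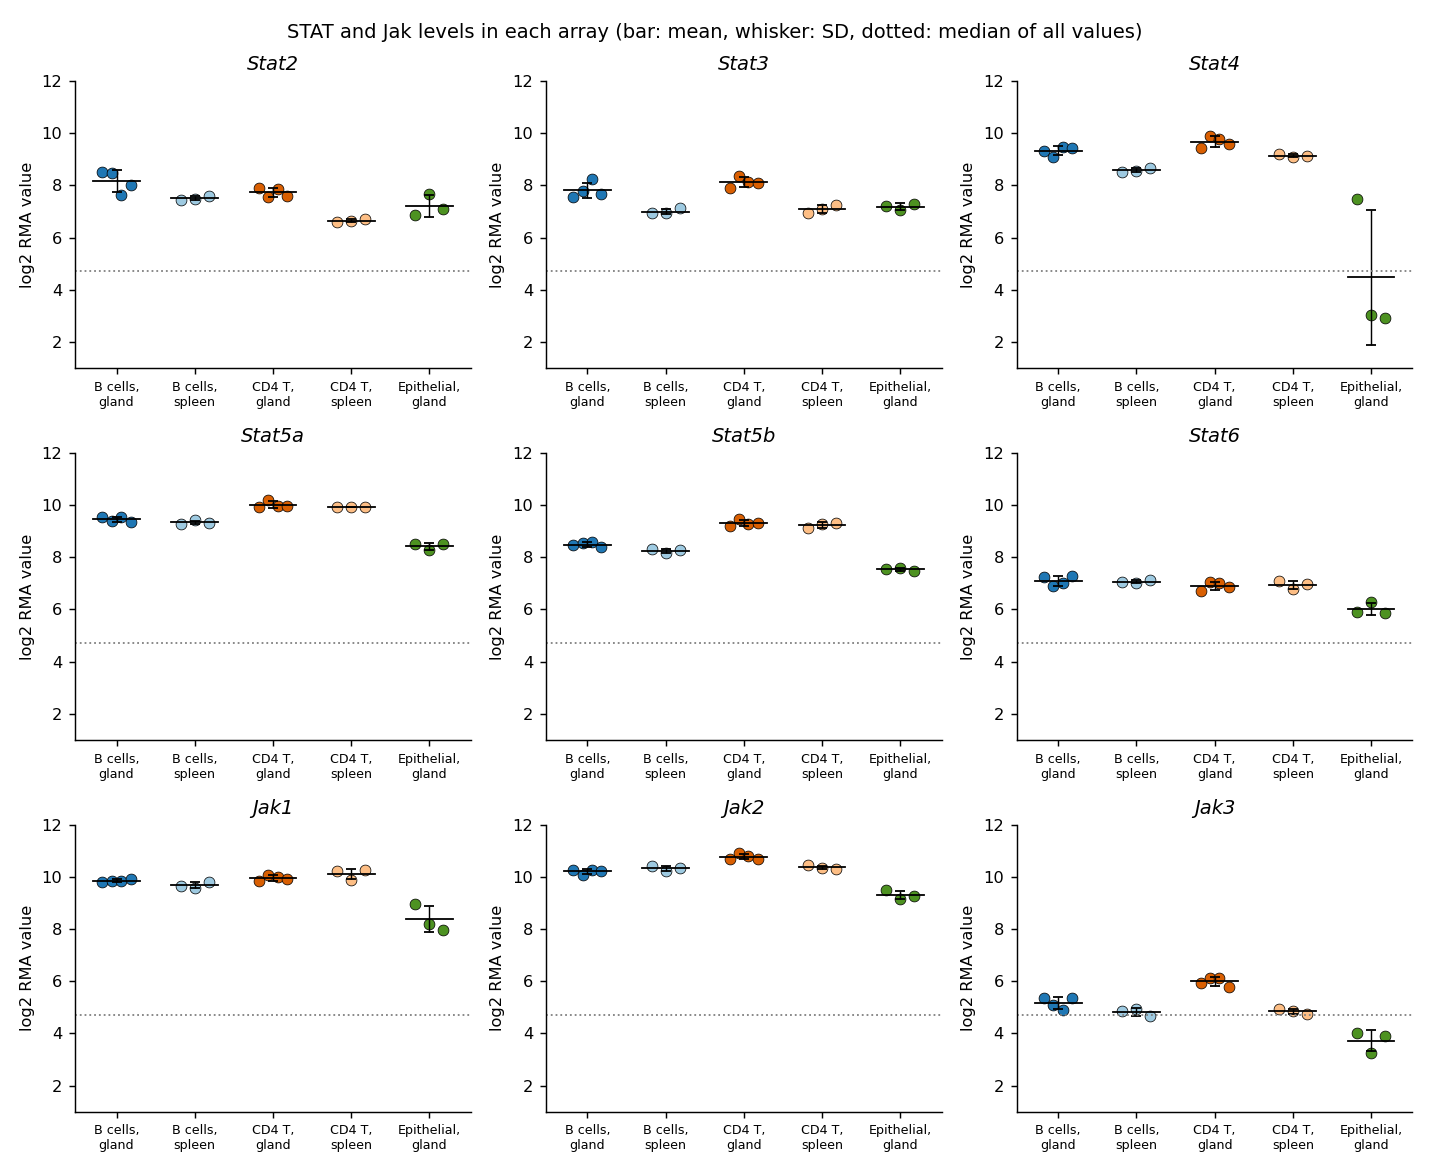
Each panel plots the log2 RMA value of a member (vertical axis, log2 units) in every array of the 5 groups, with points for arrays, a bar for the group mean and a whisker for the SD. The 4 gland CD4 T cell arrays of Jak3 (5.79 to 6.13) lie above the other 13 arrays, and the epithelial arrays of Stat4 are split between 7.47 and 3.04 and 2.91.

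The promoter windows of the 4 genes that rose in gland CD4 T cells are shown because these genes moved together. Each window runs from 250 bases before to 50 after the start site, read 5′ to 3′ on the gene's strand, from RefSeq (GRCm38.p6). Capitals mark letters that match GAAANNGAA on either strand, the core of the element that interferon-activated complexes containing Stat2 bind. The windows are Stat2 at chr10:128270248-128270547 on the plus strand, Stat3 at chr11:100939491-100939790 on the minus strand, Jak2 at chr19:29251553-29251852 on the plus strand and Jak3 at chr8:71676133-71676432 on the plus strand.
Stat2: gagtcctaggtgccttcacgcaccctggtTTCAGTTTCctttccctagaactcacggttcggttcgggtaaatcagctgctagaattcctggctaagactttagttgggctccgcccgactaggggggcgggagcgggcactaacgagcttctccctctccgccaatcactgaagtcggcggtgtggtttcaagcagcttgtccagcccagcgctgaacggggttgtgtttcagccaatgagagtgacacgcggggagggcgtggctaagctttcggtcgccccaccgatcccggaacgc
Stat3: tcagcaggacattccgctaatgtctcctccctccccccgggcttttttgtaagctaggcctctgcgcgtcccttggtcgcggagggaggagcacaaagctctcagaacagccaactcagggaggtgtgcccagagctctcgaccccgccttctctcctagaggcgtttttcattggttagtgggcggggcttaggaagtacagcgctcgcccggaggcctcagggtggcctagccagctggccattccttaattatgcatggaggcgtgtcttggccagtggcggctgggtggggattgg
Jak2: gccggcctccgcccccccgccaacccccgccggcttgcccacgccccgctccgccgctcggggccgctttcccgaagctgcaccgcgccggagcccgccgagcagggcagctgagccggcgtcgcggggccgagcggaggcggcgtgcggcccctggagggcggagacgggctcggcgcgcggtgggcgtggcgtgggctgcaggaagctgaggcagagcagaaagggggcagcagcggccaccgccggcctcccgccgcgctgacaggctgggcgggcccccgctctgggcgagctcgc
Jak3: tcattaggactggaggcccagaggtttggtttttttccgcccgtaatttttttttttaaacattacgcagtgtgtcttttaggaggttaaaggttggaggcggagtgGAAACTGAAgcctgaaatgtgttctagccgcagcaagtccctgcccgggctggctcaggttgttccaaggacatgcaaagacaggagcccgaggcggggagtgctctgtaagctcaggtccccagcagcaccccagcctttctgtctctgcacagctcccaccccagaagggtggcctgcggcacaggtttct

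All 9 members matched the table, with 12 windows. GAAANNGAA was found in 3 of the 12 windows, against 8.56% of all 32851 windows of 300 bases. In Stat2 it begins at base -221 from the start site, where the other strand reads GAAACTGAA. In Jak3 the same letters, GAAACTGAA, lie on the gene's strand at -143, and in the second of the Stat4 windows GAAAGTGAA lies at -97. TTCNNNGAA, a palindrome that STAT pairs bind, was found in 0 of the 12 windows and in 8.3% of all windows. Palindromes with another spacing were not searched. The Jak2 window had a GC content of 81.0%, against 59.3% for Stat2, 60.7% for Stat3 and 54.3% for Jak3. A match is a description of letters, and its absence says only that these letters are not in this window.

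Stat2 is the STAT that type I and type III interferons use, in a complex with Irf9. In CD4 T cells its log2 levels were 7.92, 7.55, 7.86 and 7.60 in the 4 gland arrays and 6.60, 6.65 and 6.71 in the spleen arrays. The groups did not overlap, and the difference of means was 1.08 (SE 0.20, 95% interval 0.65 to 1.50, adjusted p = 0.000826). In B cells its levels were 8.51, 8.49, 7.64 and 8.03 in the gland and 7.46, 7.47 and 7.59 in the spleen. Gland replicates 1 and 2 were the highest of all 17 arrays, and replicate 3 lay just above the spleen arrays. The difference was 0.66 (SE 0.20, 95% interval 0.24 to 1.09, adjusted p = 0.0317). This call in B cells was lost without gland B cell replicate 1 or 2 (adjusted p = 0.085 and 0.0881) or without spleen B cell replicate 1, 2 or 3 (0.0931, 0.0975 and 0.0636). The rise in CD4 T cells exceeded that in B cells by 0.41 (95% interval -0.19 to 1.02), which did not pass (adjusted p = 0.448).

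Of the plasmacytoid dendritic cell list 3 of 5 genes were measured, and 1 of them, Ccr9, a chemokine receptor that lymphocytes also express, put the gland B cell arrays in the same order as Stat2. Ccr9 stood at 8.88, 8.54, 5.87 and 7.34 in gland B cell replicates 1 to 4 and at 5.18 to 5.70 in the spleen B cell arrays. Of the other genes of the list, Tcf4 was 9.23 ± 0.08 in gland and 9.12 ± 0.11 in spleen B cells and Klk1 6.44 ± 0.17 and 6.80 ± 0.25. Tcf4 was thus high in B cells of both tissues, so its level cannot show whether a few cells of this type were present. Cd8a, Cd4 and the lacrimal secretory list had the same order as Stat2. In gland B cell replicates 1 to 4 Cd8a stood at 7.58, 6.89, 5.79 and 6.02 and Cd4 at 5.85, 5.72, 4.69 and 5.13. The lacrimal secretory list stood at 8.81, 8.50, 8.05 and 8.23 there. The epithelial list, at 5.66, 5.37, 5.72 and 5.80, had another order. In CD4 T cells Ccr9 was lower in the gland (5.09 ± 0.29) than in the spleen (7.41 ± 0.29), while Stat2 was higher there. Epithelial arrays had Stat2 at 6.87 to 7.66, above the spleen CD4 T cell arrays and overlapping the gland CD4 T cell arrays. The part of other cells in the Stat2 difference was not tested.

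Stat3 carries the signals of IL-6, IL-10, IL-21 and related cytokines and is needed for the Th17 and follicular helper fates of CD4 T cells. Its CD4 T cell levels were 7.92, 8.38, 8.12 and 8.09 in the gland and 6.96, 7.10 and 7.25 in the spleen. Every gland array was above every spleen array, with a difference of 1.02 (SE 0.14, 95% interval 0.71 to 1.33, adjusted p = 7.07e-05). In B cells it stood at 7.57, 7.78, 8.24 and 7.67 in the gland and at 6.94, 6.94 and 7.12 in the spleen. These groups did not overlap either, with a difference of 0.81 (SE 0.14, 95% interval 0.51 to 1.12, adjusted p = 0.00105). Both calls were kept on leaving out each of the 17 arrays in turn, and the changes in the 2 cell types differed by 0.21 (95% interval -0.23 to 0.64, adjusted p = 0.634). The epithelial arrays, at 7.04 to 7.30, were all below the gland lymphocyte arrays.

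Stat4 acts downstream of IL-12 and drives the Th1 program and its product interferon gamma. It stood at 9.43, 9.90, 9.79 and 9.58 in gland CD4 T cells and at 9.20, 9.09 and 9.13 in spleen CD4 T cells. In B cells it stood at 9.32, 9.08, 9.49 and 9.44 in the gland and at 8.53, 8.54 and 8.68 in the spleen. In both cell types every gland array lay above every spleen array. The differences were 0.53 in CD4 T cells and 0.75 in B cells, each with an SE of 0.73, and neither passed (adjusted p = 0.69 and 0.553). The SE was shared with the epithelial group, whose arrays spread from 2.91 to 7.47. Without epithelial replicate 1 the same differences had an SE of 0.11 and passed (adjusted p = 0.00278 in CD4 T cells and 0.000329 in B cells), which made 5 and 3 passing members.

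Stat5a and Stat5b are close relatives that carry the signals of IL-2, IL-7 and other cytokines of the common gamma chain, and of growth hormone and prolactin. Stat5a stood at 9.92 to 10.19 in gland and 9.91 to 9.94 in spleen CD4 T cells, and at 9.36 to 9.56 in gland and 9.28 to 9.41 in spleen B cells. Gland and spleen overlapped in both, with differences of 0.09 (95% interval -0.09 to 0.27) and 0.13 (95% interval -0.05 to 0.31) that did not pass (adjusted p = 0.524 and 0.341). Stat5b stood at 9.21, 9.45, 9.26 and 9.32 in gland and 9.12, 9.29 and 9.30 in spleen CD4 T cells, a difference of 0.08 (adjusted p = 0.584). In B cells Stat5b stood at 8.45, 8.54, 8.58 and 8.38 in the gland and 8.30, 8.17 and 8.28 in the spleen, without overlap. That difference, 0.24 (SE 0.08), lay at the threshold, with an adjusted p of 0.0501. It passed without gland B cell replicate 4, gland CD4 T cell replicate 2 or spleen CD4 T cell replicate 1 (adjusted p = 0.0373, 0.0368 and 0.047).

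Stat6, the STAT of IL-4 and IL-13, was alike in the 4 lymphocyte groups, with array values between 6.69 and 7.28. Its gland minus spleen difference was 0.05 in B cells (95% interval -0.22 to 0.32, adjusted p = 0.858) and -0.05 in CD4 T cells (95% interval -0.32 to 0.22, adjusted p = 0.844). Both intervals exclude a change of 1 log2 unit in either direction.

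Jak1 pairs with the interferon, common gamma chain and gp130 receptors. It stood at 9.81, 9.84, 9.84 and 9.93 in gland B cells and at 9.63, 9.59 and 9.80 in spleen B cells. These arrays did not overlap, but the difference of 0.19 (SE 0.17) did not pass (adjusted p = 0.525). Its CD4 T cell levels were 9.85 to 10.08 in the gland and 9.87 to 10.25 in the spleen, a difference of -0.15 (adjusted p = 0.601).

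Jak2 serves the receptors of growth hormone, prolactin, interferon gamma, IL-12 and the beta common cytokines. In CD4 T cells it stood at 10.68, 10.90, 10.80 and 10.70 in the gland and at 10.44, 10.34 and 10.31 in the spleen. The groups did not overlap, with a difference of 0.41 (SE 0.09, 95% interval 0.22 to 0.60, adjusted p = 0.00306). In B cells it stood at 10.28, 10.06, 10.26 and 10.23 in the gland and at 10.40, 10.21 and 10.35 in the spleen. Here the arrays overlapped and the gland mean was the lower, by 0.11 with a 95% interval of -0.30 to 0.08 (adjusted p = 0.449).

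Jak3 binds the common gamma chain and is largely restricted to blood cells. Among CD4 T cells it stood at 5.94, 6.13, 6.11 and 5.79 in the gland and at 4.95, 4.85 and 4.73 in the spleen. It was the member with the largest difference there, 1.15 (SE 0.16, 95% interval 0.80 to 1.50, adjusted p = 7.71e-05). The spleen values lie near the median of all values, 4.71, so the fold of 2.22 compares array values, the lower of which was not shown to be above background. In B cells it stood at 5.36, 5.09, 4.88 and 5.35 in the gland and at 4.85, 4.95 and 4.67 in the spleen. The groups overlapped, and the difference of 0.35 (SE 0.16) did not pass (adjusted p = 0.175).

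Jak2 and, on the probe set used, Jak3 differed between the cell types in their gland change. The CD4 T cell change minus the B cell change was 0.52 for Jak2 (SE 0.13, 95% interval 0.25 to 0.79, adjusted p = 0.0135) and 0.80 for Jak3 (SE 0.23, 95% interval 0.31 to 1.30, adjusted p = 0.0376). These are 2 of 9 members, where 6.55% of all genes had a more positive change in CD4 T cells, and the median over the members was -0.04 beside -0.02 over all genes. The Jak2 call was kept on leaving out each array in turn, with adjusted p from 0.00659 to 0.0422. The Jak3 call was lost without any of 10 arrays, with adjusted p up to 0.101: gland B cell replicates 2 and 3, spleen B cell replicates 1 and 2, gland CD4 T cell replicates 1, 2 and 3 and spleen CD4 T cell replicates 1, 2 and 3. It was also lost with the mean of the Jak3 probe sets, where the difference was 0.41 (adjusted p = 0.304), and with the replicate number as a block (adjusted p = 0.0609).

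**Figure D2:**
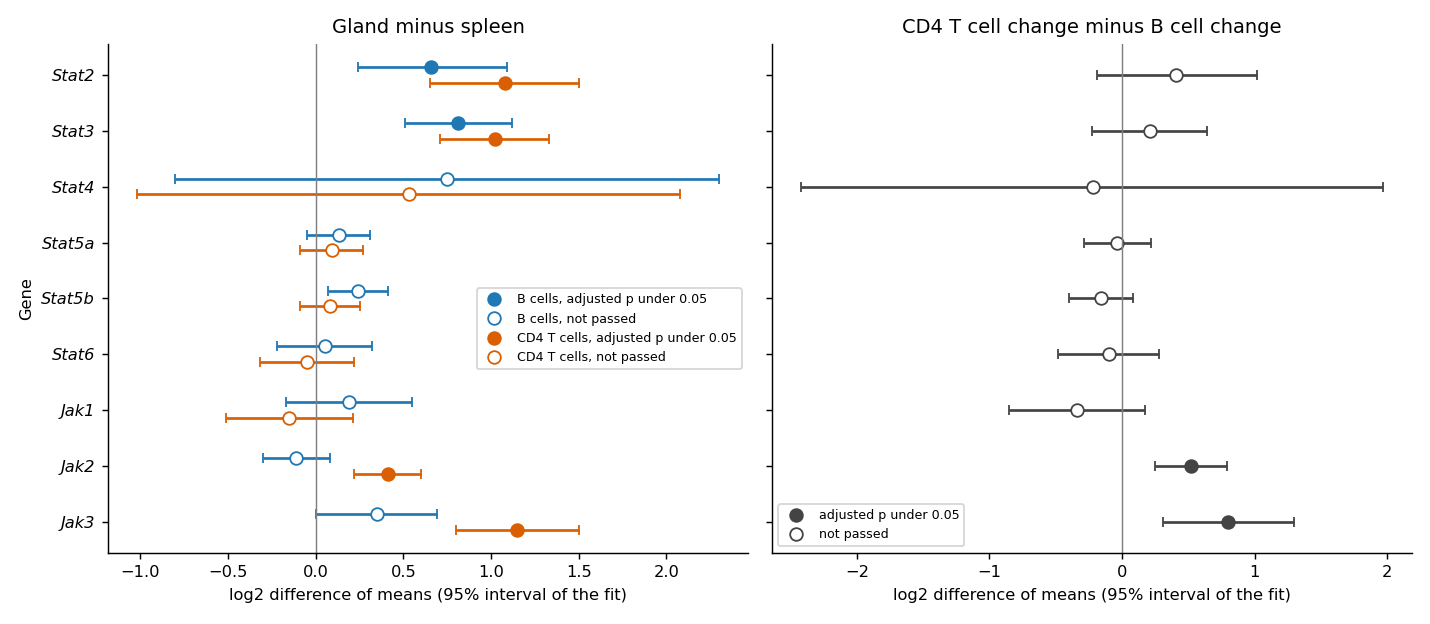
The left panel plots the gland minus spleen difference of log2 means of each member (horizontal axis, log2 units) with its 95% interval, for B cells and CD4 T cells, and the right panel plots the CD4 T cell change minus the B cell change. Filled points passed an adjusted p under 0.05: Stat2 and Stat3 in both cell types, Jak2 (0.41) and Jak3 (1.15) in CD4 T cells and, in the right panel, Jak2 (0.52) and Jak3 (0.80).

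Every gland array lay above every spleen array for 5 members in B cells (Stat2, Stat3, Stat4, Stat5b and Jak1) and for 5 in CD4 T cells (Stat2, Stat3, Stat4, Jak2 and Jak3). Of all genes, 14.5% separated this way among B cell arrays and 16.8% among CD4 T cell arrays. The epithelial and secretory lists were higher in the gland lymphocytes than in the spleen, as given above. For Stat3 and Jak2, on the probe sets used, the epithelial arrays themselves were below every gland lymphocyte array. For Jak3 this depended on the probe set: the second one stood at 6.40 to 7.07 in the epithelial arrays and at 3.96 to 5.14 in the gland lymphocyte arrays. For Stat4, epithelial replicates 2 and 3, which were low in Ptprc, stood at 3.04 and 2.91. The part of epithelial RNA in the members' differences was not tested.

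Gland B and CD4 T cells differed in 4 members, all lower in B cells. Stat5a was lower by 0.55 on the log2 scale (95% interval of B minus CD4 T, -0.72 to -0.39, adjusted p = 3.85e-05), Stat5b by 0.82 (-0.98 to -0.67, adjusted p = 2.06e-07), Jak2 by 0.56 (-0.74 to -0.39, adjusted p = 5.82e-05) and Jak3 by 0.82 (-1.15 to -0.50, adjusted p = 0.000506). Over all genes, 16.1% were called lower in gland B cells. None of these 4 members overlapped between the gland B and CD4 T cell arrays. The share of all genes without overlap was not computed for this comparison. The calls were kept on leaving out each array in turn. Stat2 was 0.44 higher in gland B cells (SE 0.19, adjusted p = 0.0914) and Stat3 0.31 lower (SE 0.13, adjusted p = 0.0964). Without gland B cell replicate 3, which had the lowest Stat2 and the highest Stat3 of its group, both passed, at 0.61 (adjusted p = 0.0113) and -0.45 (adjusted p = 0.00598). Stat4, 0.34 lower in gland B cells, passed without epithelial replicate 1 (SE 0.11, adjusted p = 0.023).

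In the spleen, Stat5a and Stat5b were also lower in B cells, by 1.51-fold and 1.98-fold (adjusted p = 0.000104 and 1.66e-07). Stat2 was higher in spleen B cells, at 7.46 to 7.59 against 6.60 to 6.71, a difference of 0.85 (SE 0.21, adjusted p = 0.0076). Over all genes 11.1% were higher and 11.3% lower in spleen B cells. Jak2 and Jak3 did not pass between the spleen subsets, with differences of -0.04 (95% interval -0.25 to 0.16) and -0.02 (95% interval -0.39 to 0.36). Jak1, at 9.59 to 9.80 in spleen B cells and 9.87 to 10.25 in spleen CD4 T cells, and Stat4, at 8.53 to 8.68 and 9.09 to 9.20, did not overlap but did not pass (adjusted p = 0.105 and 0.725). Without epithelial replicate 1 both passed, with differences of -0.44 (adjusted p = 0.00601) and -0.56 (adjusted p = 0.00264), and 5 members differed between the spleen subsets. That fit called 4057 of all 17097 genes between these subsets, against 3843 with all arrays.

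Put in order of their group means, the 5 groups gave 36 neighbouring pairs over the 9 members, of which 13 differed. Shares over all genes were not computed for this count or for the place of epithelium, so both only describe these members. Epithelium was the lowest group for 7 members, and its step from the next group passed for all of them. For Jak3 this place turned with the probe set, the second having epithelium as the highest group (6.71 ± 0.34, against means of 4.19 to 4.90 in the lymphocyte groups). The exceptions were Stat2, where epithelium (7.21 ± 0.41, SD, n = 3) stood above spleen CD4 T cells (6.66 ± 0.06) and differed from them (adjusted p = 0.0345), and Stat3, where it (7.19 ± 0.13) stood above both spleen groups (7.10 ± 0.15 in the nearer, CD4 T cells) without a difference that passed. On the second Stat2 probe set epithelium was the lowest group, at 4.97 ± 0.22 against 5.10 ± 0.07 in spleen CD4 T cells, with overlapping arrays. On the first the order of Stat2 was gland B cells, gland CD4 T cells, spleen B cells, epithelium and spleen CD4 T cells, and only its last step passed. For Stat3 gland CD4 T and gland B cells led, and the step from gland B cells to epithelium passed (adjusted p = 0.00131). Stat5a and Stat5b had the same order, with gland and spleen CD4 T cells above gland and spleen B cells and the step from spleen CD4 T to gland B cells passing for each (adjusted p = 0.000441 and 1.65e-06). Jak2 and Jak3 each had gland CD4 T cells on top by a step that passed, and the other 3 lymphocyte groups below them were not told apart by neighbouring steps. For Stat4, Stat6 and Jak1 no step among the lymphocyte groups passed. Without epithelial replicate 1, the Stat4 steps from gland CD4 T to gland B cells (adjusted p = 0.023) and from spleen CD4 T to spleen B cells (adjusted p = 0.00264) did.

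On the probe sets used, all 9 members were lower in the epithelial sort than in gland lymphocytes (the mean of both subsets), where 36.9% of all genes were lower, with a median difference of -1.32 beside -0.10 over all genes. Stat4 had the largest difference, -5.03 (SE 0.65, adjusted p = 4.22e-06), between a mean of 4.47 ± 2.60 (SD, n = 3) in epithelium and means of 9.33 ± 0.18 and 9.67 ± 0.21 (n = 4 each) in gland B and CD4 T cells. Jak3 was 3.63-fold lower (adjusted p = 1.17e-08), Jak1 2.88-fold, Stat5b 2.57-fold, Stat5a 2.49-fold, Jak2 2.28-fold, Stat6 1.99-fold, Stat3 1.72-fold and Stat2 1.67-fold (adjusted p = 0.00178). The Jak3 direction turned with the probe set: the second was 1.95 higher in epithelium, and the mean of both gave 0.04 (adjusted p = 0.793). The epithelial mean of the first, 3.72 ± 0.40, lay below the median of all values, so the fold of 3.63 compares array values, the lower not shown to be above background. Stat2 was the member whose epithelial arrays overlapped those of the gland lymphocytes, and the share of all genes without such overlap was not computed.

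Epithelial replicate 1, the array with high Ptprc, carried Stat4 at 7.47, which is 4.50 above the mean of replicates 2 and 3. Jak1 was 8.96 there against 8.21 and 7.98, and Jak3 4.01 against 3.26 and 3.89. The other members of replicate 1 differed from the mean of the other replicates by -0.52 (Stat2) to 0.27 (Jak2). In the same array Ncr1, which encodes the natural killer receptor NKp46, was 6.27 against 1.99 and 1.90, Gzma, a granzyme of cytotoxic cells, 9.47 against 2.16 and 2.08, and the T cell list 5.57 against 3.20 and 3.12. Without replicate 1 the Stat4 difference was -6.53 (SE 0.12), Jak1 -1.81 and Stat2 -0.57 (adjusted p = 0.0196), and all 9 members still passed. The part of leukocyte, endothelial, fibroblast and red cell RNA in the epithelial values was not tested.

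**Figure D3:**
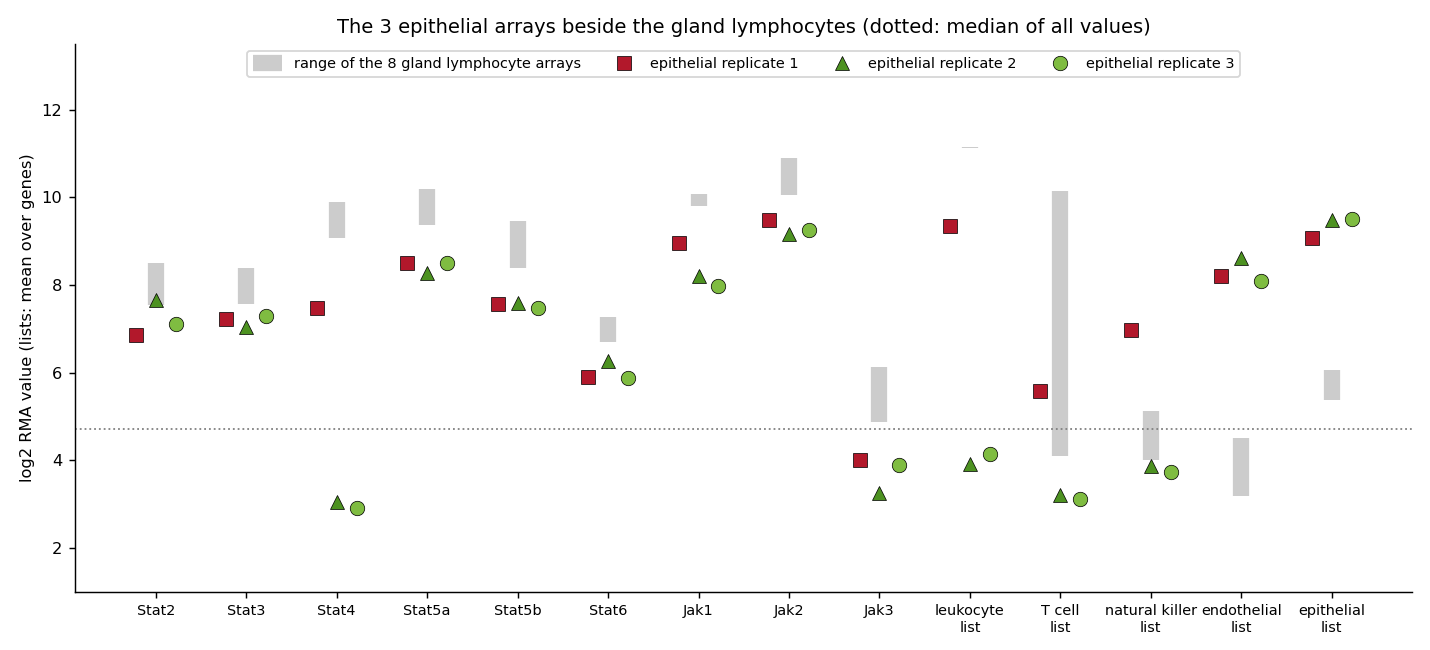
The log2 RMA values of the 9 members and the means of 5 marker lists (vertical axis, log2 units) are plotted for the 3 epithelial arrays beside grey bars for the range of the 8 gland lymphocyte arrays. Replicate 1 (square) separates from the other epithelial arrays for Stat4 (7.47), for the leukocyte list (9.35 against 3.92 and 4.14) and for the natural killer list (6.97).

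Other probe sets of the members did not all follow those used above. The second Jak2 probe set rose in gland CD4 T cells by 1.31 (SE 0.23, adjusted p = 0.000458 over all 45141 probe sets), from 6.59 ± 0.10 to 7.90 ± 0.53, and in B cells its difference was 0.15 (adjusted p = 0.748). The second Stat2 probe set rose in gland CD4 T cells by 0.74 (adjusted p = 0.0314), and in B cells its difference was 0.60 (adjusted p = 0.102). The second Stat3 probe set, with a mean of 3.37, stood below the median of all values and showed differences of 0.05 in CD4 T cells and 0.13 in B cells. Of the 3 Jak1 probe sets 1 rose in gland B cells, by 0.46 (adjusted p = 0.034).

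The Jak3 probe sets went apart in epithelium. The one with the higher mean, used above, stood at 4.01, 3.26 and 3.89 in the epithelial arrays, while the second stood at 6.40, 6.66 and 7.07 there. In gland lymphocytes the second had means of 4.61 ± 0.47 (B cells) and 4.90 ± 0.20 (CD4 T cells), so it was 1.95 higher in epithelium (SE 0.19, adjusted p = 2.33e-07) where the first was 1.86 lower. Its gland minus spleen difference in CD4 T cells was 0.44 (SE 0.22, adjusted p = 0.178), against 1.15 for the first. The means of these probe sets over all arrays, 4.99 and 4.95, were nearly equal, so the choice between them by mean was close and the Jak3 results hold for the first probe set.

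**Figure D4:**
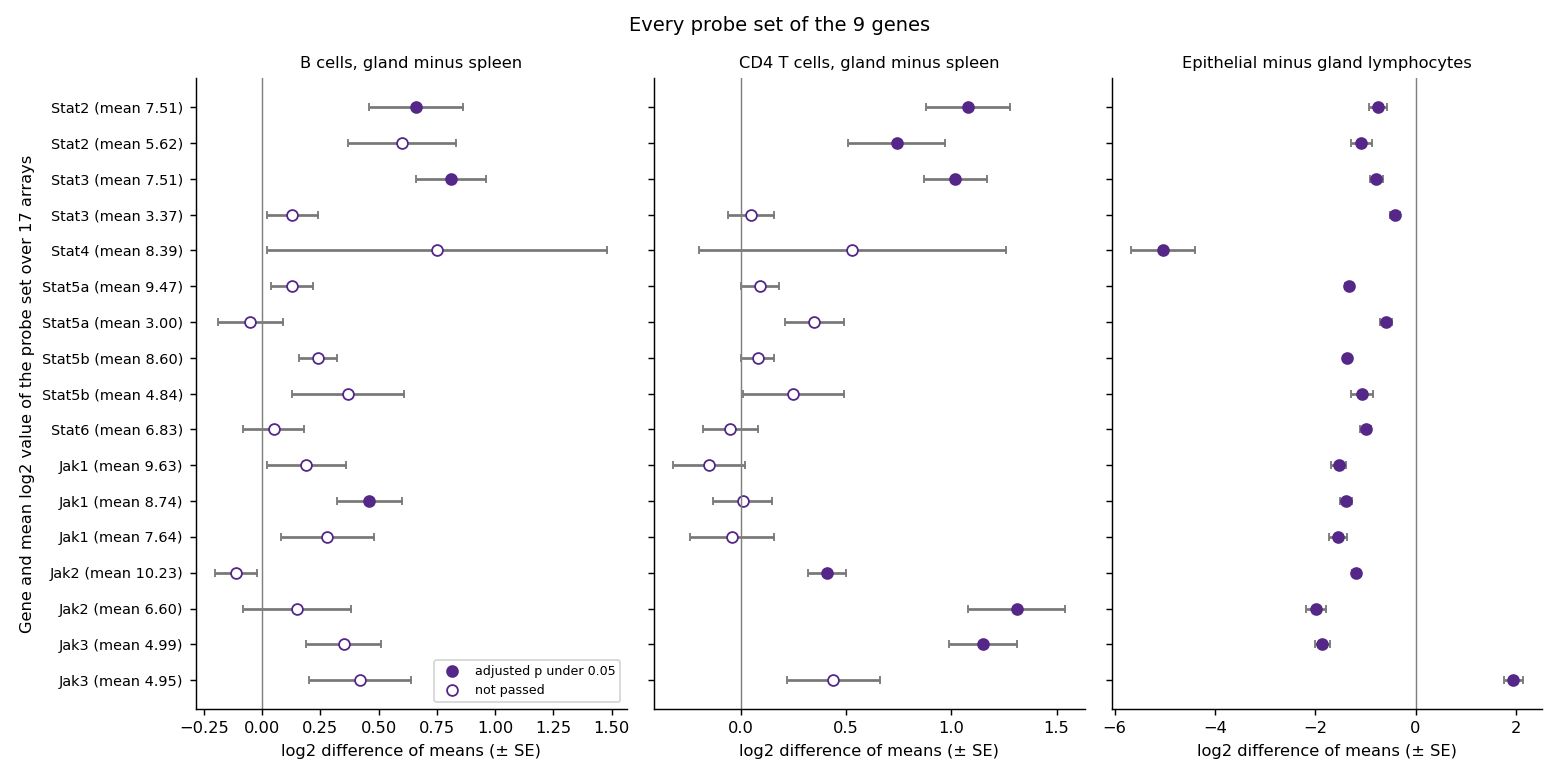
Each row is a probe set of a member, labelled with its mean log2 value over 17 arrays, and the horizontal axes give the log2 difference of means with its SE for gland minus spleen in B cells, gland minus spleen in CD4 T cells and epithelium minus gland lymphocytes. All but the second Jak3 probe set (1.95) lie below 0 in the right panel.

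The genes whose levels followed each member most closely over the 17 arrays were found among 10151 other genes with a mean above the median of all values. Stat4 was followed by Laptm5 and Cd2, each with a Pearson r of 0.992, and Jak1 by Kif21b and Apbb1ip (0.982 each). Stat5a was followed by Zc3hav1 (0.980) and Eipr1 (0.978), Stat5b by Psip1 (0.975) and Galnt6 (0.974), and Stat6 by Sf3b2 (0.976) and Sf3b3 (0.972). Jak2 was followed by Ptprv (0.981) and Nfatc1 (0.976), Jak3 by Tmem126a (0.969) and Jade2 (0.960), and Stat3 by Snu13 (0.969) and Fem1c (0.945). Stat2 had the lowest such values, with Trim30d and Tor3a at 0.863 each. The 5 groups lie in clusters, so these values describe mostly the steps between groups.

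Receptors upstream of the Jaks were counted in 4 lists, with the rise in the gland given first. These counts and those of the other lists stand beside 7.79% higher and 9.87% lower over all genes in B cells, and 12.7% and 10.7% in CD4 T cells, and a count of 1 in a list of this size is near those shares. Of the common gamma chain and related receptors (8 of 10 genes measured), 1 rose in B cells and 3 rose in CD4 T cells, and the median changes were 0.30 and 0.83. Without epithelial replicate 1 there were 5 rises in CD4 T cells. Crlf2, a chain of the thymic stromal lymphopoietin receptor, rose in both, by 0.40 (adjusted p = 0.00708) and 1.10 (adjusted p = 2.72e-07), and more in CD4 T cells (difference 0.70, adjusted p = 0.00203). Il15ra, the IL-15 binding chain, rose by 1.02 (adjusted p = 0.00292) and Il13ra1, a chain of the IL-13 receptor, by 1.01 (adjusted p = 3.98e-06, from a level of 2.89 to 3.90, below the median of all values) in CD4 T cells.

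Of the gp130 and IL-12 family receptors (9 of 11 measured), 1 rose in B cells, and 4 rose and 1 fell in CD4 T cells, with medians of 0.21 and 0.39. Il12rb1, a chain of the IL-12 and IL-23 receptors that act through Stat4 and Stat3, rose in CD4 T cells by 1.26, from 6.18 ± 0.19 to 7.45 ± 0.23 (adjusted p = 5.43e-05). Lifr, the leukaemia inhibitory factor receptor, rose there by 1.68 (adjusted p = 0.00139) to a level of 3.46, below the median of all values. Osmr, the oncostatin M receptor, rose by 0.72 in CD4 T cells and 0.51 in B cells, at levels up to 3.48, and neither passed with the mean of its probe sets (adjusted p = 0.267 and 0.0765). In B cells its call was also lost without gland B cell replicate 3 or 4 or spleen B cell replicate 2 or 3 (adjusted p = 0.0725, 0.0594, 0.0934 and 0.1). Il6ra, the IL-6 binding chain, fell in CD4 T cells by 0.71 (adjusted p = 0.0498), a call kept only without gland B cell replicate 3 or without an epithelial array, with adjusted p up to 0.14 without others.

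Of the interferon and IL-10 family receptors (9 of 10 measured), 2 rose in each cell type, with medians of 0.10 (B cells) and 0.22 (CD4 T cells). Ifngr1, the interferon gamma binding chain, rose by 1.33 in CD4 T cells, from 6.90 ± 0.19 to 8.23 ± 0.30 (adjusted p = 2.6e-05). Ifnar2, a chain of the type I interferon receptor, rose by 0.63 in CD4 T cells and 0.50 in B cells (adjusted p = 0.000608 and 0.00557). With the mean of its probe sets neither passed (adjusted p = 0.164 and 0.175). Ifnlr1, of the type III interferon receptor, rose in B cells by 0.69 (adjusted p = 0.00381) to a level of 3.61.

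Of the hormone and beta common receptors (6 of 9 measured), 3 rose and 2 fell in B cells and 2 rose in CD4 T cells. Csf2rb2, a mouse beta chain of the IL-3 receptor, rose in B cells by 2.53, from 4.94 ± 0.15 to 7.48 ± 1.14 (adjusted p = 0.000831). Il5ra, the IL-5 receptor chain, fell in B cells by 1.16 (adjusted p = 0.0002). Csf2rb, the common beta chain, fell there by 0.90 (adjusted p = 0.0301), a call lost without gland B cell replicate 3 or 4 (adjusted p = 0.0826 and 0.0697) or any spleen B cell array (0.0773, 0.069 and 0.0968). Ghr, the growth hormone receptor, rose in both cell types, by 1.81 (B cells) and 1.29 (CD4 T cells), to levels of 4.30 and 4.26, and Il3ra rose by 1.02 in CD4 T cells (adjusted p = 4.17e-05).

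Of the ligands (22 of 25 measured), 6 rose and 1 fell in CD4 T cells and 1 rose and 2 fell in B cells. Il10 had the largest rise in CD4 T cells, 6.97, from 2.37 ± 0.36 to 9.34 ± 0.10 (adjusted p = 1.59e-12), followed by Ifng at 4.91, from 5.58 ± 0.43 to 10.48 ± 0.12 (adjusted p = 0.00111), Il21 at 4.18 (adjusted p = 4.01e-11) and Il2 at 2.11 (adjusted p = 3.55e-07). The spleen levels of Il10, Il21 (3.71 ± 0.42) and Il2 (4.20 ± 0.25) lay below the median of all values and were not shown to be above background, so the sizes and order of these rises compare array values. Il10 and Il21 signal through Stat3. Il10 also rose in B cells, by 1.24 to a level of 3.27, and its change was 5.74 larger in CD4 T cells (adjusted p = 2.67e-09). Il12a and Ebi3, chains of IL-12 family cytokines, fell in gland B cells by 1.48 (adjusted p = 0.000115) and 1.06 (adjusted p = 0.00249).

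Of the 18 inhibitors of the pathway, 5 rose in B cells, and 10 rose and 2 fell in CD4 T cells, with median changes of 0.15 and 0.52. Without spleen B cell replicate 3 these were 3 rises for B cells and 8 for CD4 T cells, beside 5.87% and 12.1% of all genes in that fit. Socs3, the inhibitor of gp130 signals and itself a Stat3 target, rose by 2.78 in B cells, from 3.73 ± 0.03 to 6.52 ± 0.18 (adjusted p = 5.89e-10). In CD4 T cells it rose by 0.85, from 6.18 ± 0.13 to 7.04 ± 0.21 (adjusted p = 0.000104), a smaller change than in B cells (difference -1.93, adjusted p = 2.47e-06). Ptpn11, which encodes the phosphatase SHP2, rose in CD4 T cells by 1.13 (adjusted p = 1.52e-08), and this change was larger than in B cells by 1.06 (adjusted p = 4.28e-06). Socs2, a Stat5 target, rose in CD4 T cells by 1.27 (adjusted p = 0.00039).

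Usp18, which blocks Jak binding at the type I interferon receptor, rose by 2.71 in B cells (adjusted p = 0.00215) and by 1.67 in CD4 T cells (adjusted p = 0.032). The CD4 T cell call of Usp18 was lost without gland CD4 T cell replicate 1, 3 or 4 or without any spleen CD4 T cell array, with adjusted p from 0.0501 to 0.103. Socs2 in B cells rose by 0.70 (adjusted p = 0.0342), a call lost without gland B cell replicate 2, 3 or 4 or any spleen B cell array, with adjusted p from 0.0551 to 0.116. Pias2 rose by 0.90 in B cells (adjusted p = 9.72e-05), and by 0.10 without passing with the mean of its probe sets (adjusted p = 0.634).

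**Figure D5:**
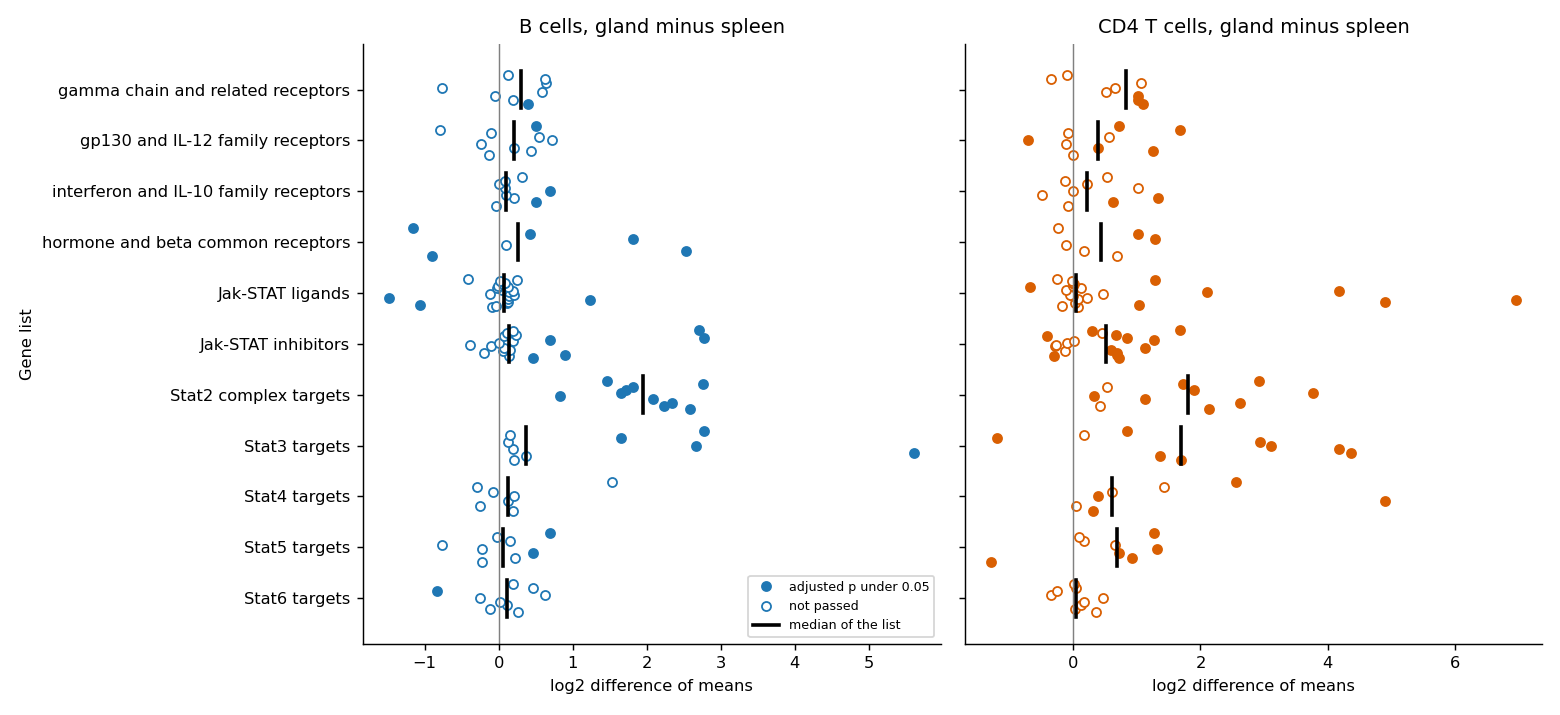
Each point is the gland minus spleen difference of log2 means (horizontal axis, log2 units) of a gene of the 11 lists around the members, for B cells on the left and CD4 T cells on the right. Filled points passed an adjusted p under 0.05, black bars are list medians, and the Stat2 complex targets have medians of 1.95 and 1.81.

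The targets of each STAT were set beside it. Of 12 genes induced by the Stat2 complex 10 were measured, and 10 rose in B cells and 8 rose in CD4 T cells, with medians of 1.95 and 1.81. In B cells Oas3, an antiviral RNA sensor, rose by 2.76 (adjusted p = 0.000339), Ifit1 by 2.58 (adjusted p = 0.00185) and Ifit3 and Ifit2 by 2.34 and 2.24. Mx1, an antiviral GTPase, rose in CD4 T cells by 3.77 (adjusted p = 7.32e-05), Rsad2 by 2.92 (adjusted p = 4.9e-05), Ifit3 by 2.62 and Ifit1 by 2.13. Over all leave-one-out fits 8 of these genes kept their call in B cells and 7 did so in CD4 T cells, and without spleen B cell replicate 3 there were 8 in B cells. The list mean was 8.55, 8.48, 6.58 and 7.56 in gland B cell replicates 1 to 4, the same order as Stat2 itself, and 5.56 to 6.04 in the spleen B cells. The epithelial arrays, at 6.90 to 7.12, lay above the spleen B cell arrays and near the highest of the spleen CD4 T cell arrays (6.58 to 6.94), and the part of other cells in these rises was not tested.

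Of 9 measured Stat3 targets, 4 rose in B cells, and 7 rose and 1 fell in CD4 T cells, with medians of 0.37 and 1.70. The lists of ligands and inhibitors share Il21 and Socs3 with it. Fos and Junb, subunits of AP-1 that many stimuli induce within a short time, rose in B cells by 5.62 and 2.67 and in CD4 T cells by 4.37 and 3.11. Maf, a transcription factor of IL-10 and IL-21 producing T cells, rose in CD4 T cells by 2.93 (adjusted p = 7.87e-09) and Myc, a growth regulator, rose in B cells by 1.65 (adjusted p = 0.00275). In CD4 T cells Myc was the gene that fell, by 1.21 from 7.37 ± 0.49 to 6.16 ± 0.63 (adjusted p = 0.0142), a call lost without spleen CD4 T cell replicate 2 (adjusted p = 0.087). Its change in CD4 T cells minus that in B cells was -2.87 (adjusted p = 0.000733).

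Of 7 Stat4 targets 4 rose in CD4 T cells and 0 in B cells (limma, 1 at an unadjusted p under 0.05). Without epithelial replicate 1 these were 5 and 1, the B cell gene being Tbx21, with means of 6.47 ± 0.31 (gland) and 4.94 ± 0.25 (spleen) in those cells (adjusted p = 3.49e-05, and 0.00114 with only the arrays compared, against 0.212 with all). With Ifng, Tbx21, the Th1 transcription factor, rose in CD4 T cells from 6.47 ± 0.39 to 9.03 ± 0.06 (adjusted p = 0.0256), a call lost without gland replicate 3 or spleen replicate 1 or 3 (adjusted p = 0.0514, 0.0929 and 0.0651). The SE of this change of 2.56, 0.78 as in B cells, came from a spread shared with the epithelial arrays. Furin rose by 0.30 (adjusted p = 0.00468). Il12rb2, a receptor chain of IL-12, had a rise of 0.39 (adjusted p = 0.0376) at a level of 3.09, lost without gland replicate 1 or 2 or spleen replicate 2 or 3 (adjusted p = 0.0931, 0.104, 0.118 and 0.125). The list averaged 7.51 in epithelial replicate 1 and 4.57 and 4.63 in replicates 2 and 3, a split that Stat4 itself also showed.

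Of 8 measured Stat5 targets, 4 rose and 1 fell in CD4 T cells and 2 rose in B cells. The list does not separate genes that Stat5 induces from genes that it represses, so these counts do not measure Stat5 activity. Foxp3, the transcription factor of regulatory T cells, rose in CD4 T cells by 1.32, from 8.35 ± 0.12 to 9.68 ± 0.17 (adjusted p = 1.38e-07), and Bcl6, of follicular helper cells, by 0.92 (adjusted p = 5.94e-05). Bcl2, a survival gene, fell there by 1.30 (adjusted p = 2.68e-06). In B cells the targets were Socs2 and Cish, and Cish rose by 0.46 (adjusted p = 0.017), lost without spleen B cell replicate 3 (adjusted p = 0.0713).

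Of 9 Stat6 targets, 0 rose in either cell type (limma, 2 of the B cell and 1 of the CD4 T cell changes at an unadjusted p under 0.05). Arg1, Ccl22, Retnla, Mrc1 and Socs1 had group means below the median of all values in gland and spleen of both cell types. They were not shown to be above background, so the lack of a rise in them says little about Stat6. The fall of Mrc1 in B cells, 0.83 at levels of 2.37 and 3.20, was lost without spleen B cell replicate 3 (adjusted p = 0.0831). The medians of the list were 0.11 (B cells) and 0.04 (CD4 T cells), and Stat6 itself did not pass in either.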

How the data were processed

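The table deposited by the authors covers 45141 probe sets on 17 arrays as log2 expression values, computed with Partek and RMA per the submitters' processing notes. Per the labels, RNA from sorted cells was amplified before labelling. The labels also give 3 RNA samples an integrity number below that of the rest, by sample numbers that could not be matched to arrays, so RNA quality was not compared between groups. The deposited values ran from 0.492 to 12.9, with array medians from 4.70 to 4.75, and arrays of a group correlated at 0.977 to 0.996. The platform annotation gave a single gene for 28898 probe sets, 28689 of which were found by gene identifier, and several genes for 551, and it did not hold the other 15692. Names were brought up to date with RefSeq tables (GRCm38.p6). The genome build of the array files is not given in the sources used here.

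Groups were taken from the sample titles. All 17097 genes were fitted with 1 mean per group in limma 3.58.1 in R 4.3.3 (lmFit, contrasts.fit and eBayes, 12 residual and 3.17 prior degrees of freedom), and p-values were Benjamini-Hochberg adjusted over all genes. A gene passed at an adjusted p under 0.05, with no fold minimum. Errors beside group means are SDs between arrays, and the number of arrays limits the precision. The samples were not treated as paired by replicate number. Same-numbered arrays of different groups correlated at -0.40 to 0.21 in their deviations from group means. These values cannot decide whether such arrays shared an animal, which the labels do not say.

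All 9 members were named. From each pathway list up to 4 passing genes with the largest change were named for each gland against spleen comparison, and for each member the 2 genes with the highest Pearson r. Members, lists and tests were chosen with earlier results of these data known. The alternatives were a fold minimum of 2, a filter on low values, averaging the probe sets of a gene, all probe sets, centring, array weights, quantile normalization, trend and robust eBayes, the replicate number as a block, only the arrays compared, and leaving out each array in turn. The pipeline was tested on simulated data. Promoters and figures were handled in Python 3.11.15 with pandas 2.3.3, numpy 2.4.6, scipy 1.17.1 and matplotlib 3.10.9. Protein sequences were not analysed here.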

Additional observations from a re-analysis of the deposited data

Results flagged for a closer look

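The gland against spleen change of Jak2 differed between CD4 T and B cells by 0.52 (limma, adjusted p = 0.0135), with every gland CD4 T cell array above every spleen CD4 T cell array and overlapping arrays in B cells. The change of Jak3 differed by 0.80 (adjusted p = 0.0376), with the same pattern of arrays, and 10 of the 17 fits that left out an array lost this call. So did the mean of its probe sets (adjusted p = 0.304) and the replicate block (adjusted p = 0.0609). Both were picked out because the test of the difference itself passed. Of the 18 sets of 4 arrays examined for a single array far from its group, 0 had such an array. Groups of 3 arrays were not part of this check, which therefore did not cover Stat4 in epithelium (7.47, 3.04 and 2.91).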

How the results depend on the processing

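Of the values of single members under the alternatives, 1391 kept their direction and their side of the threshold. Among the others, 33 no longer passed, 24 newly passed, 9 changed sign without passing in either fit and 1 reversed. The reversal was Jak3 in epithelium against gland lymphocytes with the mean of its probe sets, 0.04 (adjusted p = 0.793). With a fold of at least 2 required, 0 members passed in B cells, for the difference of changes, for gland B against CD4 T cells and for spleen B against CD4 T cells, and 3 neighbouring pairs did. In B cells 4 members passed with array weights, and 1 to 3 on leaving out each array. For the difference of changes 1 passed with the mean of probe sets (Jak3 then had an adjusted p of 0.304), 1 with the replicate block (Jak3, adjusted p = 0.0609), and 1 to 2 on leaving out each array. The replicate block changed no other member's call in gland against spleen, and whether equal numbers share an animal is not known. In the spleen 5 passed with only the arrays compared, and 3 to 5 on leaving out each array, the highest without epithelial replicate 1. Over all genes these fits called 4515 and, without epithelial replicate 1, 4057 in the spleen, against 3843. Stat2 in B cells did not pass with only the arrays compared (adjusted p = 0.0623), and Stat5b there passed with the filter on low values, quantile normalization or array weights (adjusted p = 0.0405, 0.0337 and 0.0332). Over all genes, array weights called 3989 changes in B cells against 3019, and 2647 differences of changes against 1731. Fitting all probe sets gave 6955, 10270 and 3757 calls in B cells, CD4 T cells and their difference against 3019, 3995 and 1731, and 12038, 8452 and 27841 for gland B against CD4 T, spleen B against CD4 T and epithelium against 5196, 3843 and 11081, with more features fitted. Quantile normalization gave 1910 higher and 2763 lower genes in CD4 T cells against 2168 and 1827, and 977 and 815 against 1120 and 611 for the difference. The cause of these shifts was not tested. Jak3 lies near the median of all values in the spleen arrays, which limits what its folds show.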
